A study of Homo sapiens with 6 samples.

Results

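The olfactory receptor genes of human chromosome 11 were examined in peak lists of CTCF and of H3K27ac from cultured neurons. Members were chosen by name and position: protein-coding genes on chromosome 11 of GRCh38 whose symbol is OR, digits, letters and digits. The gene table held 171 such genes among 1301 protein-coding genes of the chromosome. Of these, 3 (OR8U8, OR8U9 and OR9G9) were placed only on alternate sequences outside the main chromosome, to which the peak lists do not extend, so that 168 could be analysed beside 1129 other protein-coding genes. The series comprised 6 chromatin immunoprecipitation sequencing (ChIP-seq) libraries from neurons that had been differentiated from neural progenitor cells of the human induced pluripotent stem cell line KOLF2.1J, which is established and widely shared: 2 with an antibody against CTCF, 2 with an antibody against H3K27ac and 2 inputs without antibody. No treatment, genotype or time point separated them, and all came from a single cell line. Each antibody had 1 deposited peak list for both of its replicates, so a spread between replicates could not be given, and the read depth behind the peaks is unknown. The wider study looked for regulatory elements of MAPT, and nothing in the labels refers to olfactory receptors.

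An olfactory sensory neuron transcribes a single receptor allele out of this large gene family, and the remaining receptor genes are kept in compact, repressed chromatin. Outside the olfactory epithelium most receptor genes are silent. In olfactory sensory neurons the transcription factors LHX2 and EBF, with their cofactor LDB1, act at receptor enhancers. Class I receptors (families 51, 52 and 56 among these genes) resemble the receptors of fish and sit together in a single cluster, and all other families are class II. H3K27ac is a histone acetylation found at active promoters and enhancers. CTCF binds DNA directly and, with cohesin, sets the ends of chromatin loops.

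The 168 genes formed 8 clusters, a cluster being a run of at least 3 receptor genes with gaps of at most 500 kb, and 5 genes lay outside any cluster. The largest, from OR52B4 to OR52W1 (chr11:4367263-6200186), held all 55 class I genes over 1833 kb. It was followed by OR4A16 to OR5AK2 (chr11:55343201-56989843) with 46 genes over 1647 kb. The cluster from OR6X1 to OR8A1 (chr11:123753580-124571374) held 22 genes and that from OR9Q1 to OR5B21 (chr11:58023881-58508105) held 13. Smaller clusters ran from OR2AG2 to OR2D3 with 8 genes, from OR5P2 to OR10A3 with 4, from OR4B1 to OR4A47 with 7 and from OR5AN1 to OR10V1 with 8. The genes outside clusters were OR4C13, OR4C12, OR4C46 and OR4A5, all of family 4, and OR2AT4. The genes were short: their intervals had a median length of 1103 bp against 18221 bp for other genes of the chromosome.

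Receptor promoters also differed from those of other genes in sequence, and 4 windows are shown because they cover the exceptions and the contrast described below. OR5A2 was the receptor whose promoter window overlapped an H3K27ac peak, OR52N2 the receptor whose window overlapped a CTCF peak, OR5A1 is the neighbour of OR5A2 without a peak, and PATL1 is the coding gene with the highest H3K27ac fold enrichment within any cluster. PATL1 encodes a factor of messenger RNA decay. Each window covers 250 bases before and 50 after the annotated start (RefSeq, GRCh38.p14), 5′ to 3′ on the gene's strand, with CpG dinucleotides in capitals. The windows lie at chr11:59426364-59426663 (minus strand, OR5A2), chr11:5808674-5808973 (plus strand, OR52N2), chr11:59436219-59436518 (plus strand, OR5A1) and chr11:59668988-59669287 (minus strand, PATL1).
OR5A2: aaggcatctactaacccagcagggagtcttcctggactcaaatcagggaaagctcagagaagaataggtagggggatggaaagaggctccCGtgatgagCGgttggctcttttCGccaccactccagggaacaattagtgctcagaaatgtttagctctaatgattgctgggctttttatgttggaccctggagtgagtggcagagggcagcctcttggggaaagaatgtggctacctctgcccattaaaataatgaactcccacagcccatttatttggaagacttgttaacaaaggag
OR52N2: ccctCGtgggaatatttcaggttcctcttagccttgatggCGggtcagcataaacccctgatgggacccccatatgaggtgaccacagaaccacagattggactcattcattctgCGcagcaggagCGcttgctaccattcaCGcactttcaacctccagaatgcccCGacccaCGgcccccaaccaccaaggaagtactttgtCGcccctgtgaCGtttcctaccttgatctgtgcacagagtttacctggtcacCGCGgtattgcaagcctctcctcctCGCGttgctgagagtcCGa
OR5A1: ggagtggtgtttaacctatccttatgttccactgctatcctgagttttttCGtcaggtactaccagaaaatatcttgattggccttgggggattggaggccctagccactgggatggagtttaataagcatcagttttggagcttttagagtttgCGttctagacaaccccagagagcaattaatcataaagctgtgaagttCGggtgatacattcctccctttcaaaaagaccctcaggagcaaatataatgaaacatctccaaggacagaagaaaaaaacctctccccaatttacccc
PATL1: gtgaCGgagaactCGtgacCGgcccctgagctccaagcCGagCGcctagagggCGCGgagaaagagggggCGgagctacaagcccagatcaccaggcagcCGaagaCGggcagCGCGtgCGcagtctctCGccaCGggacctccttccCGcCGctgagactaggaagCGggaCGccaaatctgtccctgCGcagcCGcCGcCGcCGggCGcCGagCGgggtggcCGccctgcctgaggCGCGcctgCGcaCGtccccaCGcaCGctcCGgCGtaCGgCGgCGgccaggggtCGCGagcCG

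The OR5A2 window held 3 CpG at a GC content of 48.3%, and that of OR5A1 also held 3 CpG at 43.0%. The OR52N2 window held 14 CpG at 55.3%, and that of PATL1 held 42 at 73.7%. RefSeq windows were found for 135 of the 168 receptor genes (138 windows). Their median GC content was 37.0%, with a range from 24.3% in OR5I1 to 57.0% in OR51E1, against a median of 62.3% in the 1144 windows of other coding genes on the chromosome. The median number of CpG was 1 in receptor windows and 21 in the others. At most 4 CpG were present in 135 of 138 receptor windows (97.8%) and in 212 other windows (18.5%). The 3 receptor windows above that number belonged to OR52N2, OR51S1 with 6 CpG and OR5D18 with 5.

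Many receptor intervals are annotated as little more than the coding sequence, and the window is then not a mapped promoter. The letters ATG stood at the annotated start in 64 of 138 receptor windows (46.4%). Among the remaining 74 windows the median GC content was 39.5% and the median number of CpG was again 1. Short motifs were searched on both strands. TAATTA, a homeodomain core that LHX2 can bind, was present in 24.6% of receptor windows, in 3.58% of other chromosome 11 windows and in 4.84% of all 35116 windows in the table. CCCNNGGG, a core of the EBF motif, was present in 7.97%, 21.5% and 19.1% of the same 3 groups, and TATAAA, the TATA box core, in 36.2%, 9.18% and 11.5%. CCCTC, the pentamer after which CTCF is named, was present in 36.2% of receptor windows, 76.1% of other chromosome 11 windows and 71.2% of all windows. AT-rich motifs are commoner in AT-rich sequence, and these matches are letters in a window and not binding sites. The 97 windows of other chromosome 11 genes with at most 3 CpG in each window had a median GC content of 42.3%. Among them TAATTA was present in 9.28%, TATAAA in 38.1%, CCCNNGGG in 10.3% and CCCTC in 50.5%. For each of these motifs the receptor share was closer to that of the few-CpG windows than to that of all other chromosome 11 windows.

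**Figure D1:**
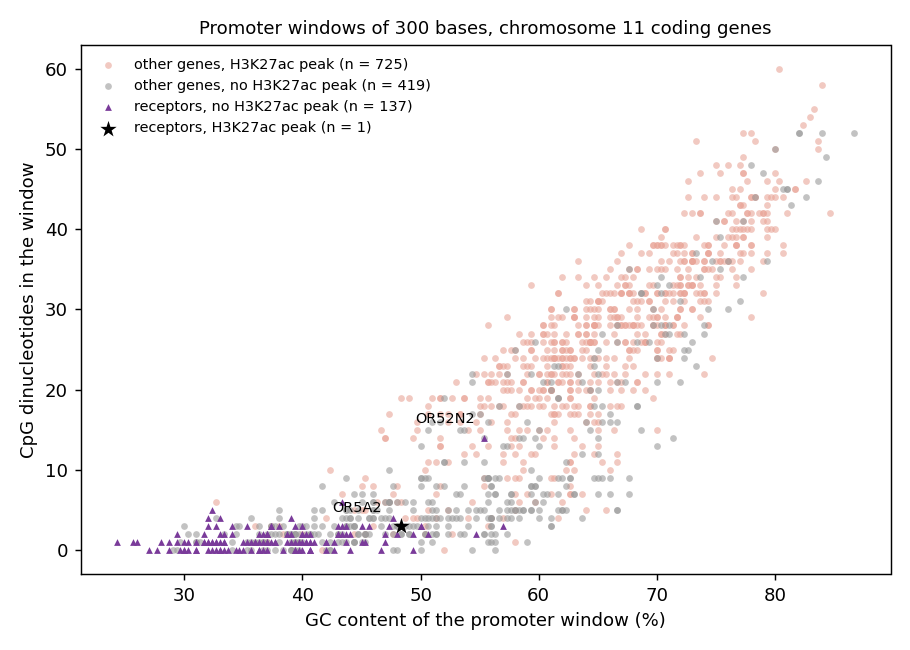
GC content (x axis, %) against the number of CpG dinucleotides (y axis) in promoter windows of 300 bases, with 138 receptor windows and 1144 windows of other chromosome 11 coding genes, coloured by overlap with an H3K27ac peak. Receptor windows lie in the lower left, at a median of 1 CpG, with OR52N2 at 14 and OR5A2 as the single receptor window under an H3K27ac peak.

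Few receptor genes carried H3K27ac. Of the 168 genes, 6 had a listed peak within 5 kb of the gene interval, which is 3.57% (95% Wilson interval 1.65 to 7.57%, counting error only). The same rule was met by 842 of the 1129 other coding genes of chromosome 11, or 74.6% (95% Wilson interval 72.0 to 77.0%), by 65.4% of all 1297 coding genes placed on the chromosome and by 74.2% of 19884 coding genes in the genome. Receptor genes on other chromosomes had a similar share, 8 of 219 or 3.65% (95% Wilson interval 1.86 to 7.04%). Neighbouring genes share surroundings and sometimes a peak, so the genes are not independent and no p-value is given.

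CTCF was also sparse near these genes, though less so. A CTCF peak lay within 5 kb of 18 of 168 receptor genes, 10.7% (95% Wilson interval 6.89 to 16.3%), against 802 of 1129 other coding genes of the chromosome, 71.0% (95% Wilson interval 68.3 to 73.6%). The share was 63.2% over all coding genes placed on the chromosome and 68.7% genome-wide, and 23 of 219 receptor genes on other chromosomes met the rule (10.5%). Neither kind of peak was within 5 kb of 146 receptor genes (86.9%), against 177 other genes (15.7%). Both kinds were near 2 receptor genes, OR52A5 and OR5A2, and near 692 other genes.

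The classes were counted apart. Of the 55 class I genes, 12 had a CTCF peak within 5 kb, 21.8% (95% Wilson interval 12.9 to 34.4%), and of the 113 class II genes 6 had one, 5.31% (95% Wilson interval 2.46 to 11.1%). These intervals treat genes as independent, whereas the pairs OR52E4 and OR52E5, OR56A3 and OR56A1, and OR51B5 and OR51M1 share a peak, so a difference between the classes is not shown by them. All class I genes share 1 cluster, so class and location cannot be told apart. CTCF peaks per Mb were 9.82 in that cluster (95% exact Poisson interval 5.82 to 15.5) and 6.96 in the other clusters (4.59 to 10.1), with overlapping intervals. For H3K27ac the numbers were 1 of 55 class I genes (1.82%) and 5 of 113 class II genes (4.42%), with overlapping intervals. By family, CTCF peaks were near 5 of 23 family 51 genes, 5 of 25 family 52 genes and 2 of 7 family 56 genes. Among the class II families they were near 2 of 24 genes of family 4, 2 of 34 of family 5 and 2 of 22 of family 8, and near no gene of families 1, 2, 6, 9 and 10.

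Receptor genes were then set beside other genes of like length or promoter type. Among receptor genes over 2 kb long, 5 of 76 had H3K27ac (6.58%) and 15 of 76 had CTCF (19.7%), against 1 of 92 and 3 of 92 among those up to 2 kb. Other chromosome 11 genes up to 2 kb long had H3K27ac in 28 of 68 cases, 41.2% (95% Wilson interval 30.3 to 53.0%), and CTCF in 30 of 68, 44.1% (95% Wilson interval 32.9 to 55.9%). Other genes whose windows held at most 3 CpG had H3K27ac in 24 of 92 cases, 26.1% (95% Wilson interval 18.2 to 35.9%), and CTCF in 30 of 92, 32.6% (95% Wilson interval 23.9 to 42.7%). Among the 135 receptor genes with a window the shares were 3.70% and 10.4%. When the windows alone were counted, 1 of 135 receptor windows with at most 4 CpG overlapped an H3K27ac peak, against 28 of 212 other windows with as few (13.2%). Some of those windows belong to genes with another, CpG-rich start. In the 97 windows of genes whose windows all held at most 3 CpG, 3 overlapped H3K27ac (3.09%), beside 1 of all 138 receptor windows (0.725%).

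**Figure D2:**
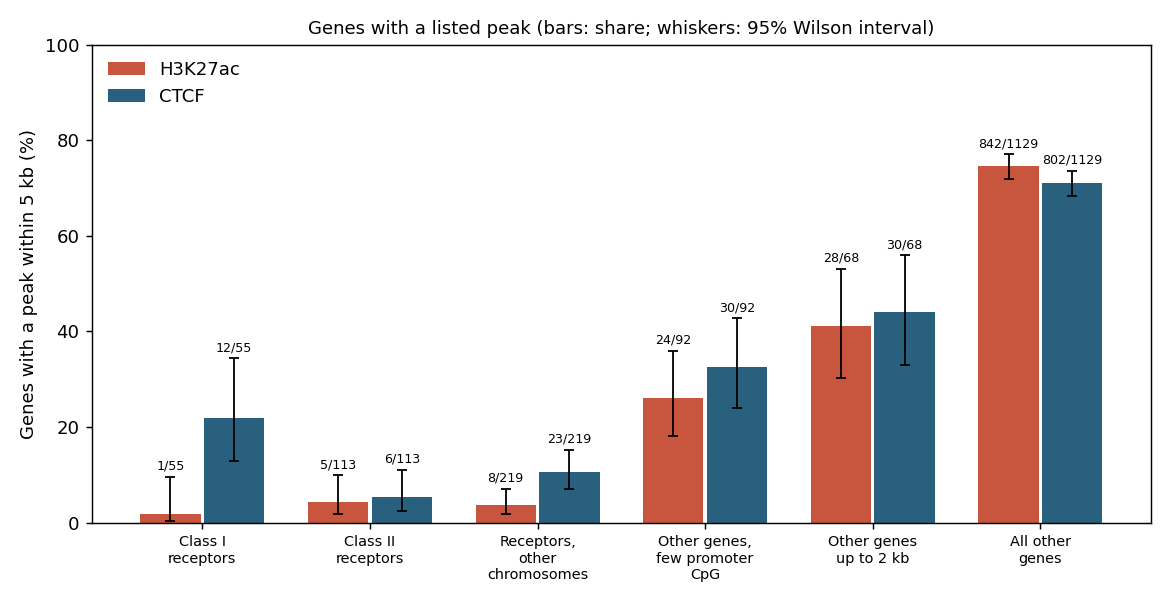
Share of genes (y axis, %) with an H3K27ac or a CTCF peak within 5 kb for 6 groups of genes on the x axis, with the number of genes above each bar and 95% Wilson intervals as whiskers. The receptor groups lie between 1.82% and 21.8%, and the groups of other chromosome 11 genes between 26.1% and 74.6%.

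Other gene families on the chromosome, taken by symbol and not all in tandem, were set beside the receptors, although each is small. The MS4A family of membrane proteins of immune cells had H3K27ac near 1 of 16 genes (6.25%) and CTCF near 4 (25%). KRTAP5 genes, which encode hair keratin-associated proteins, had H3K27ac near 1 of 11 (9.09%) and CTCF near 5. The MMP family of matrix metalloproteinases had H3K27ac near 2 of 10, the SLC22 family of organic ion transporters near 2 of 8, and the TRIM family of ubiquitin ligases near 7 of 23 (30.4%). The 95% Wilson intervals of the MS4A (1.11 to 28.3%) and KRTAP5 (1.62 to 37.7%) shares for H3K27ac overlapped that of the receptors. So did those of the MMP (5.67 to 51%) and SLC22 (7.15 to 59.1%) families, whereas that of the TRIM genes (15.6 to 50.9%) did not. The TRIM genes with H3K27ac were TRIM21, TRIM68, TRIM5, TRIM22, TRIM3, TRIM66 and TRIM44. Genes whose symbols start with TRIM48, TRIM49, TRIM51, TRIM64 or TRIM77 had neither kind of peak within 5 kb. Their nearest H3K27ac peak was 61.0 kb (TRIM49C) to 943 kb (TRIM64C) away. CTCF lay near 4 of 10 MMP genes (40.0%), 3 of 8 SLC22 genes (37.5%) and 8 of 23 TRIM genes (34.8%).

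H3K27ac near receptors was made up of 7 distinct peaks with fold enrichments from 3.91 to 13.6 and a median of 6.58, against a median of 4.84 over the 4199 peaks of the chromosome. These are the authors' values for each peak. All 7 had a q-value under 0.05. By gene, the median of the highest fold enrichment was 4.37 per receptor with a peak and 17.3 per other gene with a peak. The highest value near any receptor was exceeded at 515 of the 1129 other genes (45.6%).

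OR5A2 carried 3 of these peaks side by side. They lay at chr11:59425310-59425871 with a fold enrichment of 5.13, at chr11:59425970-59427319 with 8.60 and at chr11:59427407-59427861 with 6.58. The middle peak is 1350 bp wide, stands at percentile 76.6 of the H3K27ac list and covers the promoter window printed above, its summit lying 0.233 kb inside the gene from the annotated start. A CTCF peak with a signal value of 208.96 followed 3.49 kb from the gene at chr11:59429899-59430328 and did not overlap H3K27ac. The neighbouring gene OR5A1, whose product is a receptor for the floral odorant beta-ionone, lay 8.61 kb from the nearest H3K27ac peak and 6.14 kb from that CTCF peak.

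OR9Q1 had the strongest H3K27ac near any receptor, but deep inside a long gene model. The peaks at chr11:58058195-58059082, with a fold enrichment of 13.6 (percentile 86.96), and at chr11:58059408-58059657, with 6.86, had their summits 34.98 and 35.6 kb from the annotated start within an interval of 157736 bp. The nearest CTCF peak was 105 kb from the gene. OR52A5 was the only class I gene with H3K27ac, a peak of 148 bp at chr11:5136895-5137042 with a fold enrichment of 3.91 and its summit 1.39 kb inside the gene. A single peak of 158 bp at chr11:124022918-124023075 with a fold enrichment of 4.37 accounted for OR10G4, OR10G9 and OR10G8, since these neighbours all lie within 5 kb of it. It overlapped the interval of OR10G9, which had no promoter window and so was not among the windows counted. Thus 3 of the 6 genes rest on 1 narrow peak, and the peaks of OR52A5 and the OR10G genes stood at percentiles 33.3 and 43.7 of the list.

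CTCF near receptors was made up of 18 distinct peaks with signal values from 29.7 to 297 and a median of 143, against 101 over the 2444 CTCF peaks of the chromosome. By gene the order was the other way: the median of the highest signal value was 143 per receptor with a peak and 188 per other gene with a peak. The scale of these values is not stated, and they are used only to order peaks within the list. None of the 18 overlapped an H3K27ac peak. A count of 0 was taken to allow up to 3, a share of 16.7%, which is a rough bound that treats peaks as independent. Of all CTCF peaks in clusters 13.3% overlapped one, and of those outside the clusters 28.4%. Only 7 H3K27ac peaks lay within 5 kb of a receptor, so the 0 does not show that CTCF near receptors avoids H3K27ac. The strongest of the 18, at chr11:4636843-4637321 with a signal value of 297 (percentile 95.2), ended 0.156 kb before OR51D1. The next genes in order were OR52A5 (212), OR5A2 (208.96) and OR52N2 (200.2), followed by OR51L1 (183), OR51B5 (173), OR52K1 (170.02), OR4S1 (169) and OR51M1 (165). OR8B2 and OR8B3 shared a peak with a value of 121. Of these 11 genes, 7 were class I, and 4 were class II: OR5A2, OR4S1, OR8B2 and OR8B3. Class I made up 12 of the 18 receptors with any CTCF peak, so these counts do not tell the classes apart by signal value.

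CTCF peaks lay at the starts of few receptors with a promoter window. OR51D1, OR4S1, OR51B5 and OR51M1 had a CTCF peak within 5 kb but no window, so their starts could not be counted. The OR52N2 peak, at chr11:5808400-5808847, ended 0.077 kb before the gene, and its summit was 294 bp before the annotated start, just outside the window printed above. It was the only one of 138 receptor windows to overlap a CTCF peak, against 281 of 1144 other windows (24.6%) and 3 of the 97 windows of other genes with few CpG (3.09%), and its 14 CpG were the highest number in any receptor window. The peak of OR52K1 and the stronger of 2 at OR51L1 were at the far end, with summits 10.8 and 9.78 kb after the start. OR51B5, with an interval of 165335 bp that spans several other receptors, held 3 CTCF peaks with signal values of 55.4, 165 and 173, and the second was shared with OR51M1. OR51E2 and OR51E1, receptors also known from prostate tissue, had neither kind of peak within 5 kb: the nearest CTCF peak, that of OR51D1, was 42.9 and 6.66 kb away and the nearest H3K27ac peak, with a fold enrichment of 21.3, was 71.9 and 35.7 kb away.

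Distances to the nearest peak were also longer for receptors than for other genes. The median receptor gene lay 126 kb from the nearest H3K27ac peak (95% interval of the median 92.1 to 149.8 kb). From the nearest CTCF peak it lay 44.7 kb (39.3 to 57.3 kb). The median of other genes was 0 kb for both, that is, an overlap, but those genes are longer. Other genes up to 2 kb long had medians of 11.1 kb (3.21 to 22.7 kb) for H3K27ac and 7.99 kb (2.51 to 11.7 kb) for CTCF. Of these 68 short genes, 4.41% lay more than 100 kb from H3K27ac and 2.94% from CTCF. More than 100 kb separated 93 receptor genes (55.4%) from H3K27ac, against 41 other genes (3.63%). For CTCF the numbers beyond 100 kb were 39 receptor genes (23.2%) and 26 other genes (2.30%). Class I genes had a median distance to CTCF of 32.1 kb (17.2 to 41.7 kb) against 58.3 kb (45.4 to 74.2 kb) for class II. For H3K27ac the medians were 89.0 and 134.6 kb, with overlapping intervals, and the class with the lower share of genes near a peak had the shorter median. The genes farthest from any peak were those of family 4 on either side of the centromere: OR4C12 lay 1871 kb from H3K27ac and OR4C46 lay 1103 kb from CTCF.

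**Figure D3:**
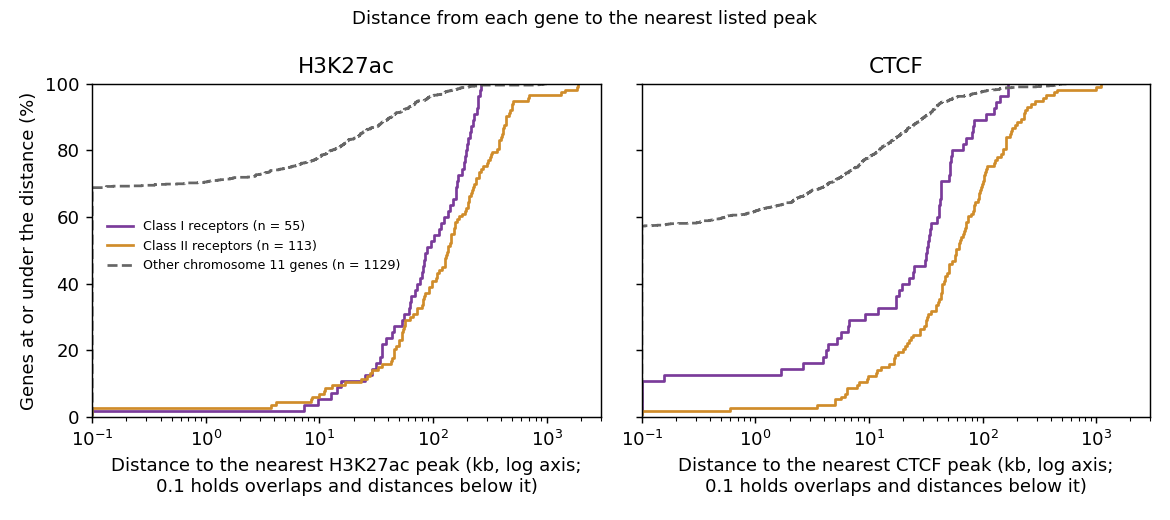
Cumulative share of genes (y axis, %) by distance to the nearest H3K27ac (left) or CTCF (right) peak on a log axis in kb, for 55 class I receptors, 113 class II receptors and 1129 other chromosome 11 genes. The receptor curves run far to the right of the other genes, with medians of 89.0 and 134.6 kb for H3K27ac and of 32.1 and 58.3 kb for CTCF.

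The clusters as a whole were poor in peaks. Together they spanned 5.71 Mb and held 41 H3K27ac summits, 7.18 per Mb (95% exact Poisson interval 5.15 to 9.74), against 32.2 per Mb (31.2 to 33.2) in the remaining 129 Mb between the first and last listed peak of the chromosome. CTCF summits numbered 45, or 7.88 per Mb (5.75 to 10.5), against 18.6 per Mb (17.8 to 19.3). Although sparse, cluster peaks were not weaker: the median H3K27ac fold enrichment was 5.77 in clusters and 4.83 elsewhere, and the median CTCF signal value 121 and 101. CTCF peaks of exactly 800 bp, a width that recurs in the list and goes with low signal values, made up 31.1% of cluster peaks and 30.9% of the others. Of the 45 cluster CTCF peaks, 6 overlapped H3K27ac (13.3%, 95% Wilson interval 6.26 to 26.2%), against 28.4% (26.6 to 30.2%) outside, and 5 of the 6 were in the cluster from OR5AN1 to OR10V1.

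The clusters differed from one another in H3K27ac. No H3K27ac peak was listed in the clusters OR2AG2 to OR2D3, OR5P2 to OR10A3 and OR4B1 to OR4A47, although these are short, and the upper Poisson bounds were 23.6, 25.3 and 13.5 per Mb. OR4A16 to OR5AK2 held 2 peaks, 1.21 per Mb (0.147 to 4.39), with a stretch of 939.7 kb without H3K27ac that contained 26 receptor genes. OR52B4 to OR52W1 held 8 peaks, 4.36 per Mb (1.88 to 8.60), and OR9Q1 to OR5B21 held the 2 peaks of OR9Q1, 4.13 per Mb (0.50 to 14.9). Densities count every listed peak, without a limit on q. Among the 8, the peaks at chr11:5690318-5690453 and chr11:5690934-5691096, both in TRIM22, had q-values of 0.513 and 0.331. OR6X1 to OR8A1 held 13, 15.9 per Mb (8.46 to 27.2). OR5AN1 to OR10V1 held 16, 45.1 per Mb (25.8 to 73.2), the only cluster above the 32.2 per Mb of the rest of the chromosome, although its interval included that value. Without that cluster the density over the other 7 was 4.67 per Mb.

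For CTCF, every cluster held at least 1 peak. The 18 peaks of OR52B4 to OR52W1 gave 9.82 per Mb (5.82 to 15.5), the 7 of OR4A16 to OR5AK2 4.25 per Mb (1.71 to 8.76), and the 8 of OR6X1 to OR8A1 9.78 per Mb (4.22 to 19.3). In OR6X1 to OR8A1 the peak at chr11:124153535-124154334 had a q-value of 0.555. OR5AN1 to OR10V1 also had 8, 22.5 per Mb (9.73 to 44.4), and each of the 4 remaining clusters had 1. The longest stretch without CTCF, 578.5 kb, was in OR4A16 to OR5AK2 and contained 21 receptor genes. The longest in the class I cluster was 353.5 kb and contained 14.

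**Figure D4:**
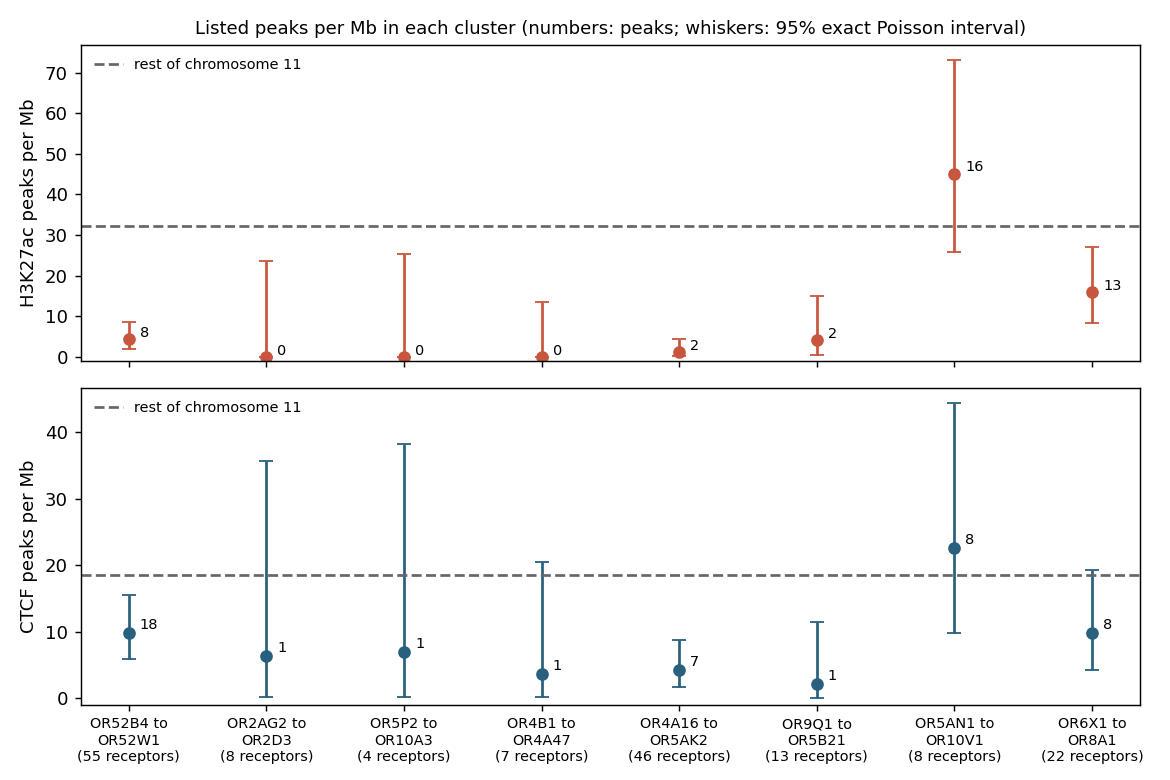
Listed peaks per Mb (y axis) of H3K27ac (top) and CTCF (bottom) in each of the 8 receptor clusters on the x axis, with the number of peaks beside each point and 95% exact Poisson intervals as whiskers. OR5AN1 to OR10V1 reaches 45.1 H3K27ac peaks per Mb, while every other cluster lies under the 32.2 per Mb of the rest of chromosome 11, shown as a dashed line.

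Most peaks inside clusters were more than 5 kb from a receptor. The share of cluster sequence within 5 kb of a receptor was not computed, so these counts do not show that peaks avoid receptors. Of the 41 H3K27ac peaks, 7 were within 5 kb of a receptor, 11 were within 5 kb of another coding gene and 23 were near no coding gene. Of the 45 CTCF peaks, 18 were within 5 kb of a receptor, 5 within 5 kb of another coding gene, with 1 peak near both OR51L1 and MMP26, and 23 near neither. The clusters contained 20 other coding genes, of which 8 had H3K27ac within 5 kb (40.0%) and 7 had CTCF (35.0%). Other genes touching no cluster had shares of 75.2% for H3K27ac and 71.7% for CTCF, so low shares were not particular to receptors. The globin genes HBB, HBD, HBG1, HBG2 and HBE1 in the class I cluster had neither kind of peak. Among the other coding genes, the highest fold enrichments in that cluster were at TRIM68 (21.3) and at the adjoining TRIM5 and TRIM22 (14.9). These are all members of the TRIM family of ubiquitin ligases. TRIM5 is known for restricting retroviruses. In OR5AN1 to OR10V1 they were at PATL1 (30.8) and at OSBP (25.4), which encodes an oxysterol-binding protein, and in OR6X1 to OR8A1 at VWA5A (6.22), where higher values up to 15.3 lay near no coding gene. The 8 receptors around PATL1 and OSBP had a median distance of 31.0 kb to H3K27ac, the shortest of any cluster, and 10 of the 16 peaks there overlapped the long noncoding RNA genes LOC102723575 or LINC02739 and no coding gene within 5 kb.

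**Figure D5:**
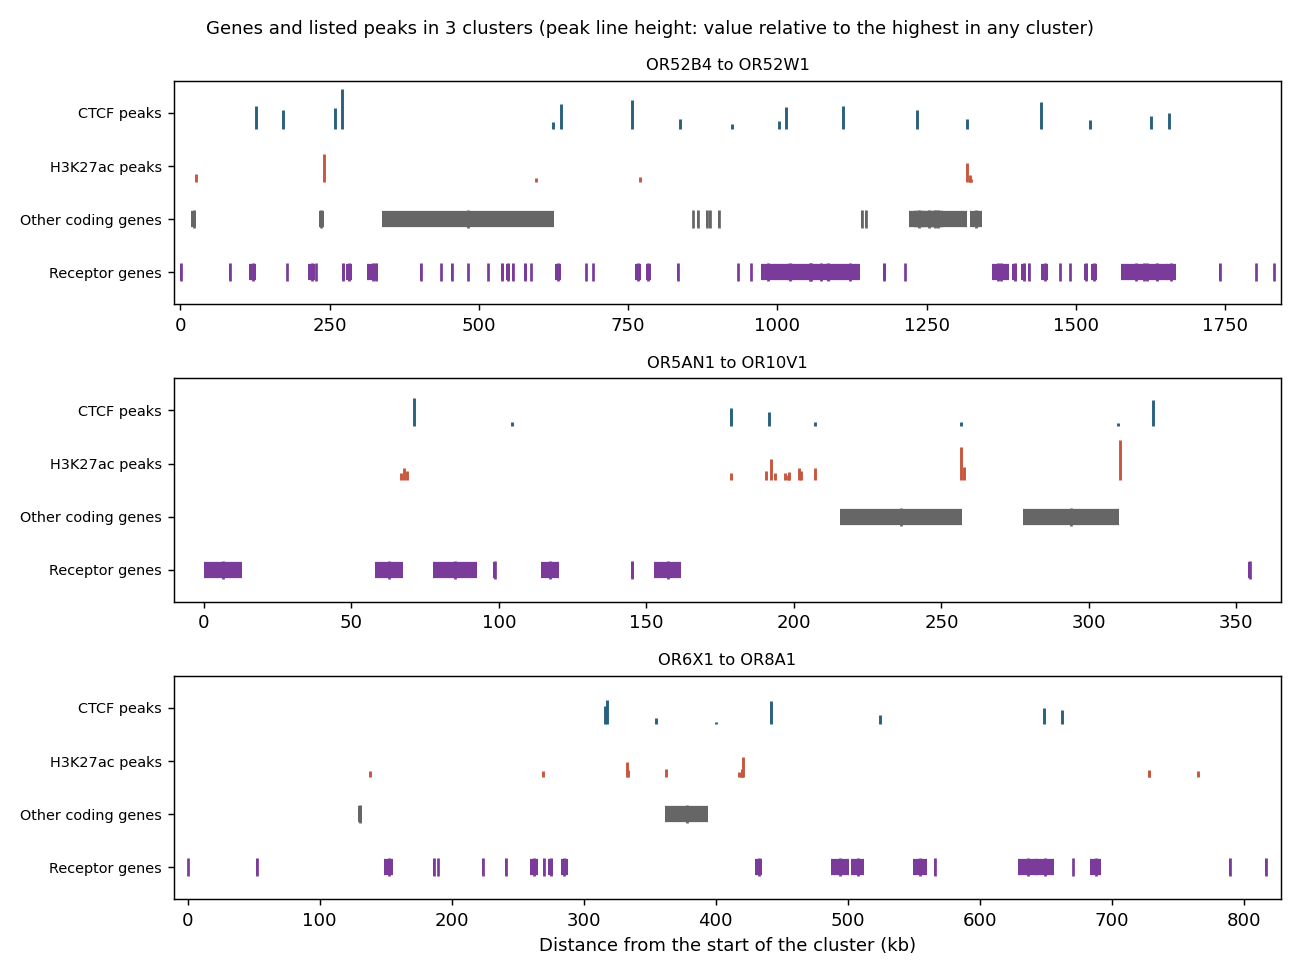
Position of receptor genes, other coding genes, H3K27ac peaks and CTCF peaks in 3 clusters, in kb from the start of each cluster (x axis), with the height of a peak line giving its value relative to the highest value of its list in any cluster. H3K27ac lines stand mainly at other coding genes or between genes, and CTCF lines are spread along the class I cluster from OR52B4 to OR52W1 (18 peaks).

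Genes that work with the receptors in the nose were examined by the same rule. Of 14 genes of olfactory signalling, 10 had H3K27ac within 5 kb, and 10 had CTCF, where the genome-wide shares were 74.2% and 68.7%. Among them STOML3, a membrane protein of sensory cilia, reached a fold enrichment of 23.3, GNAL, the G protein subunit that couples to the receptors, had 11 peaks with a highest value of 10.97, and ADCY3, the adenylyl cyclase of the pathway, had 5 with a highest value of 4.20. The signalling genes without H3K27ac were OMP, the marker protein of mature olfactory sensory neurons, CNGA2, a subunit of their cation channel, SLC24A4 and GFY. OMP and CNGA4, another subunit of that channel, lie on chromosome 11: OMP had neither kind of peak, and CNGA4 had 2 H3K27ac peaks with a highest value of 10.5. All 11 regulators of receptor choice had H3K27ac, among them LHX2 (13.4), LDB1 (24.7) and EBF1 (35 peaks, highest 19.1). These genes have other roles in neural cells, and a peak is not a measure of expression.

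Marker genes of several cell types were examined in the same way. All 10 neuron markers had H3K27ac within 5 kb, as did 6 of 6 neural progenitor markers and 3 of 4 astrocyte markers. So did 2 of 4 pluripotency markers (POU5F1 and NANOG had none) and 4 of 6 markers of olfactory sensory neurons, which are part of the signalling list. The share over all coding genes was 74.2%, so counts in lists this short do not tell the cell types apart. A peak list over a whole culture does not give the share of each cell type, and whether the few receptor peaks come from a part of the cells was not tested. The treatment of reads that match several near-identical receptor copies is not given in the sources used here. Such reads can be lost, and their part in the low numbers was not tested.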

How the data were processed

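CTCF and H3K27ac ChIP-seq peak lists from KOLF2.1J-derived neurons were analysed, 1 list per antibody for both of its 2 replicates. Per the submitters' processing notes, cutadapt 1.16 and build hg38 were used. The aligner and peak caller are not given in the sources used here. The deposited CTCF column is a peak signal on an unstated scale, and the deposited H3K27ac column was read, from its layout and values, as a fold enrichment (a ratio). The deposited lists also hold −log10 q and a score of at most 1000, and 0 columns of per-sample values. Sequencing depth is unknown, so precision was given only as counting error.

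Genes, intervals and promoter windows came from RefSeq (GRCh38.p14), and 4 protein-coding genes placed on alternate sequences were left out. A gene counted when a peak shared at least 1 bp with its interval extended by 5 kb. A peak belonged to a cluster when its summit did. Shares have 95% Wilson intervals, densities exact Poisson intervals and medians binomial order-statistic intervals (Python 3.11.15, scipy 1.17.1). No test was run, because the lists hold no replicate values. The overlap code was tested on planted intervals.

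The members, lists and rules were chosen with earlier results of these data known. Genes named were all receptors with H3K27ac within 5 kb, those with the 10 highest CTCF signal values (11 with a tie), OR51E1 and OR51E2, and the 2 other coding genes per cluster with the highest H3K27ac. Other genes are named as extremes or list members, chosen after their values were seen. Alternatives covered the extension, stricter lists, cluster gaps, which genes were compared and the removal of CTCF peaks of 800 bp. Comparison genes of like promoter CpG or up to 2 kb long, and leaving out clusters in turn, were added after seeing the data.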

Additional observations from a re-analysis of the deposited data

How the results depend on the processing

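No paired analysis was possible because each list covers both replicates together, and leaving out a replicate could not be done for the same reason. In 15 H3K27ac settings the receptor share ran from 1.19 to 10.7%, and in 10 settings the share of other genes ran from 26.1 to 83.4%. For CTCF the ranges were 4.17 to 26.8% over 16 settings and 32.6 to 85.4% over 11. The low ends for other genes are those with few promoter CpG, 26.1% and 32.6%. These low ends were taken at 5 kb and the receptor high ends at 20 kb, so the ranges are not like for like. For CTCF the highest upper bound for receptors, 33.9%, passed the lowest lower bound for other genes, 23.9%. Without extension the shares were 68.6% of other genes for H3K27ac, and 4.17% of receptors and 56% of other genes for CTCF. With 20 kb either side, 10.7% of receptors and 83.4% of other genes had H3K27ac, and 26.8% and 85.4% had CTCF. In the strongest 50% of peaks, 1.19% of receptors and 69.2% of other genes had H3K27ac, and 53.7% of other genes had CTCF. Within 10 kb of the middle of the gene, other genes had shares of 48.8% for H3K27ac and 48.7% for CTCF. Other genes up to 2 kb long had 41.2% and 44.1%. Without CTCF peaks of 800 bp, 60.1% of other genes kept a CTCF peak. Without the cluster OR52B4 to OR52W1 the CTCF share of receptors was 5.31%. A cluster gap of 1 Mb joins clusters across the genes between them and raised cluster densities to 12.1 H3K27ac and 13.2 CTCF peaks per Mb. The strongest 50% of peaks gave 5.08 and 4.73 per Mb in clusters and 16.4 and 9.95 elsewhere. Without CTCF peaks of 800 bp the densities were 5.43 and 12.8 per Mb. Without the 3 stretches of at least 1 Mb that hold no peak, the rest of the chromosome had 34.3 and 19.8 per Mb. Without OR5AN1 to OR10V1, H3K27ac fell to 4.67 per Mb. Median distances in the strongest 50% were 154.6 kb (H3K27ac) and 66.8 kb (CTCF) for receptors and 2.87 kb (CTCF) for other genes, which lay at 0.856 kb without CTCF peaks of 800 bp. Of 88 alternatives, 55 stayed within the interval of the reported value. A shorter list can only lower shares and densities, in every group. The depth, which limits what a list can hold, is unknown here.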

Other observations

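Some H3K27ac peaks in receptor clusters lay in groups near no coding gene. In the cluster from OR6X1 to OR8A1, 11 peaks were more than 5 kb from any receptor and from any other coding gene. Of these, 5 formed a group from chr11:124171081-124171316 to chr11:124174033-124174886, and the last had a fold enrichment of 15.3, at percentile 89.0 of the H3K27ac list. A second group in that cluster was led by a peak at chr11:124085859-124086864 with a fold enrichment of 11.3. That peak overlapped the noncoding RNA gene LOC105369545, and the one beside it, at chr11:124087056-124087237, did not. The cluster from OR4A16 to OR5AK2, with 46 receptor genes over 1647 kb, held its H3K27ac in a single pair at chr11:56049275-56049457 and chr11:56049715-56050145, with fold enrichments of 5.45 and 7.04. The median receptor of that cluster was 285 kb from H3K27ac.

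Among the receptors outside clusters, OR2AT4, which is known from skin cells as well as the nose, lay 43.6 kb from a CTCF peak with a signal value of 266 and 92.5 kb from the nearest H3K27ac peak. Just beyond some clusters, CTCF peaks with signal values of 312 and 154 stood 40.0 kb after OR10V1 and 5.64 kb after OR5B21. One with a value of 184 stood 7.83 kb before OR2AG2. These edges were chosen by their values, and others differed. The nearest CTCF peak outside the cluster was 1037 kb after OR4A47 and 5817 kb before OR4A16. Both distances end at the same peak, and the one to OR4A16 spans the centromere.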
